A study of Mus musculus with 17 samples.

Results

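The 9 genes described here encode sodium-glucose cotransporters and facilitative hexose transporters of the mouse kidney, and they were taken by their symbols from a table of 22558 genes. The sodium-coupled group held Slc5a1 (SGLT1), Slc5a2 (SGLT2), Slc5a10 (SGLT5) and Slc5a11 (SGLT6). The facilitative group held Slc2a1 (GLUT1), Slc2a2 (GLUT2), Slc2a4 (GLUT4), Slc2a5 (GLUT5) and Slc2a9 (GLUT9). All 9 symbols were found, and all 9 genes passed the filter on low counts in each comparison.

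Filtered glucose is taken back into the body by the proximal tubule. SGLT2 in the apical membrane of the early segments carries most of it, SGLT1 in the late segment takes up the remainder, and GLUT2 and GLUT1 pass it through the basolateral membrane to the blood. Dapagliflozin blocks SGLT2 protein, so glucose leaves with the urine, and the measurements given here are of the mRNA.

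RNA of the whole kidney was sequenced in 17 male mice, 1 library per mouse. The Ctrl group was 5 C57BL/6 mice of wild-type genotype, the Case group was 6 db/db mice (BKS.Cg-Dock7m +/+ Leprdb/J, which lack the long signalling form of the leptin receptor in every tissue), and the Dapa group was 6 db/db mice given dapagliflozin by gavage at 1 mg/kg per day. Treatment began at 8 weeks of age and lasted 6 weeks, and Ctrl and Case mice received saline. The db/db mice differ from Ctrl mice in strain background as well as in the leptin receptor, so the 2 cannot be told apart in any comparison with Ctrl.

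The total count per library was 15757676 to 16902608 in Ctrl, 14229892 to 17779635 in Case and 13039535 to 16094410 in Dapa. Mitochondrial genes took 17.9% to 20.4% of the counts in Ctrl, 19.8% to 27.3% in Case and 19.7% to 27.6% in Dapa, and without them the same number of the 9 genes passed in each comparison. The tissue label was checked with segment markers: Slc34a1, the phosphate transporter of the proximal tubule, stood at 838.8 to 1805 FPKM and Umod, the uromodulin gene of the thick ascending limb, at 317 to 2221 FPKM over all mice. In 7 libraries (Ctrl 1, 3 and 4, Case 1, Dapa 10, 11 and 12) the deposited FPKM values of 3 genes that are not described here did not follow their counts, and values within and outside these 7 libraries are given below for the genes that differed between groups. FPKM is the read count divided by the length of the gene and by the total count of the library. Unlike the edgeR fold changes, it carries no further scaling between libraries, so ratios of FPKM can differ from them. A gene was called different when its q, the p-value of edgeR's quasi-likelihood test adjusted by the Benjamini-Hochberg method over all genes tested, was under 0.05.

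GLUT4, GLUT1 and GLUT9 mRNA were higher and SGLT6 mRNA was lower in Case than in Ctrl mice. In Dapa against Ctrl, GLUT4 and GLUT1 were higher and GLUT2, SGLT6 and SGLT1 were lower, and SGLT2, the target of the drug, was called in neither. Thus the 9 genes gave 4 calls in Case against Ctrl, where 13% of all 14582 genes tested were called. They were 3 higher (6.09% of all genes) and 1 lower (6.91%). Over these 9 genes the median log2 fold change was 0.32, beside 0.031 over all genes. In Dapa against Ctrl there were 5 calls, 2 higher and 3 lower, where 29.1% of 14647 genes were called (14.2% higher and 14.9% lower), and the medians were 0.11 and 0.015. In Dapa against Case none of the 9 passed, where 0% of 14573 genes did: edgeR called no gene, 1880 had an unadjusted p under 0.05, and DESeq2 called 200 genes, none of them among the 9. Each pair of comparisons shares a group of mice, so their calls are not independent. With only the libraries outside the 7, Slc2a4 alone stayed called in Dapa against Ctrl, and none of the 9 in Case against Ctrl, where 2 Ctrl mice remain.

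FPKM ranges without overlap between groups were found for 2 of the 9 genes in Case against Ctrl (8.43% of all genes tested), for 4 in Dapa against Ctrl (14.5%) and for none in Dapa against Case (0.48%). The 2 were Slc2a4 and Slc2a9, both above Ctrl. The 4 were Slc2a1 and Slc2a4 above Ctrl, and Slc2a2 and Slc5a11 below it.

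**Figure D1:**
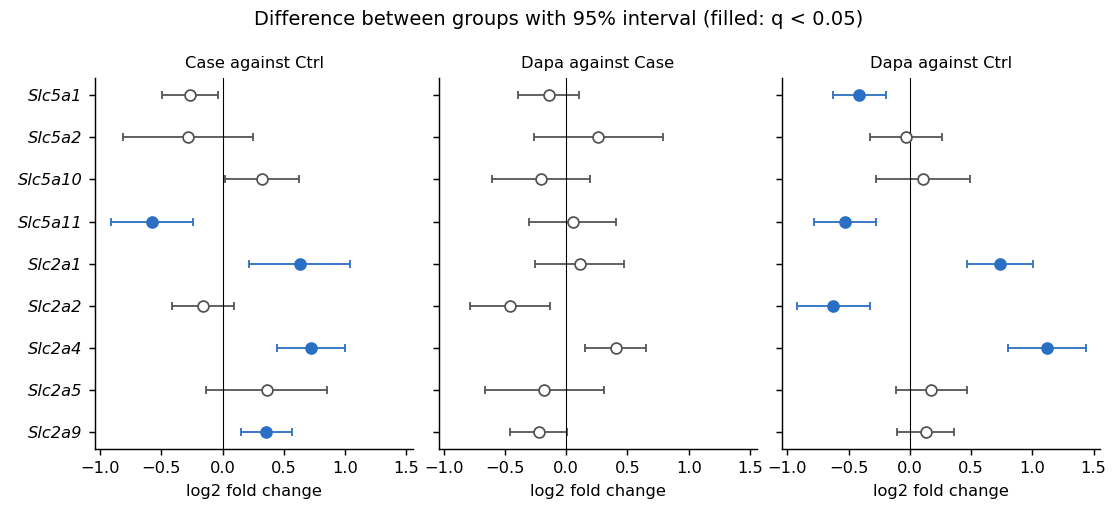
Log2 fold change (x axis) of each transporter gene (y axis) in the 3 comparisons, with points for edgeR estimates, bars for 95% intervals and filled points for q under 0.05. Filled points stand for 4 genes in Case against Ctrl, none in Dapa against Case and 5 in Dapa against Ctrl, and the interval of Slc5a2 includes 0 in each panel.

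SGLT2 mRNA did not pass the test in any comparison, and its most visible feature was the spread among untreated db/db mice. Slc5a2 lies on chromosome 7 from 128265657 to 128272430 (mm10, plus strand). Its FPKM was 60.7, 72.8, 59.0, 58.6 and 59.3 in the 5 Ctrl mice. In the 6 Case mice it ran from 26.4 over a median of 53.0 to 85.3, and in the 6 Dapa mice from 48.0 over a median of 65.5 to 85.3. The coefficient of variation was 9.72% in Ctrl, 39.5% in Case and 19.4% in Dapa, where counting error alone gives 1.28% to 1.39%. Case mice lay both above and below the whole Ctrl range, so the groups overlapped fully.

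The group means of Slc5a2 were 62.1 ± 6.03 FPKM in Ctrl (SD, n = 5), 53.7 ± 21.2 in Case (SD, n = 6) and 65.4 ± 12.7 in Dapa (SD, n = 6). The log2 fold change was -0.28 in Case against Ctrl (standard error 0.24, edgeR q = 0.481) and 0.26 in Dapa against Case (standard error 0.24, edgeR q = 0.676). In Dapa against Ctrl it was -0.03 (standard error 0.14, edgeR q = 0.892), and the 95% interval of the fold reached from 0.799 to 1.202. For Dapa against Case that interval was wider, from 0.833 to 1.73, so a fall, no change and a rise of SGLT2 mRNA within these bounds could not be told apart with these mice. Case 1, the mouse with the lowest Slc5a2, also had the lowest sum of 11 markers of the early proximal tubule, 1696 FPKM against 2607 to 2975 in Ctrl. That sum was 1696 to 3355 FPKM in Case and 1978 to 2840 in Dapa, and its part in the spread of Slc5a2 was not tested. In whole tissue, fewer cells of a type and less RNA per cell cannot be told apart.

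**Figure D2:**
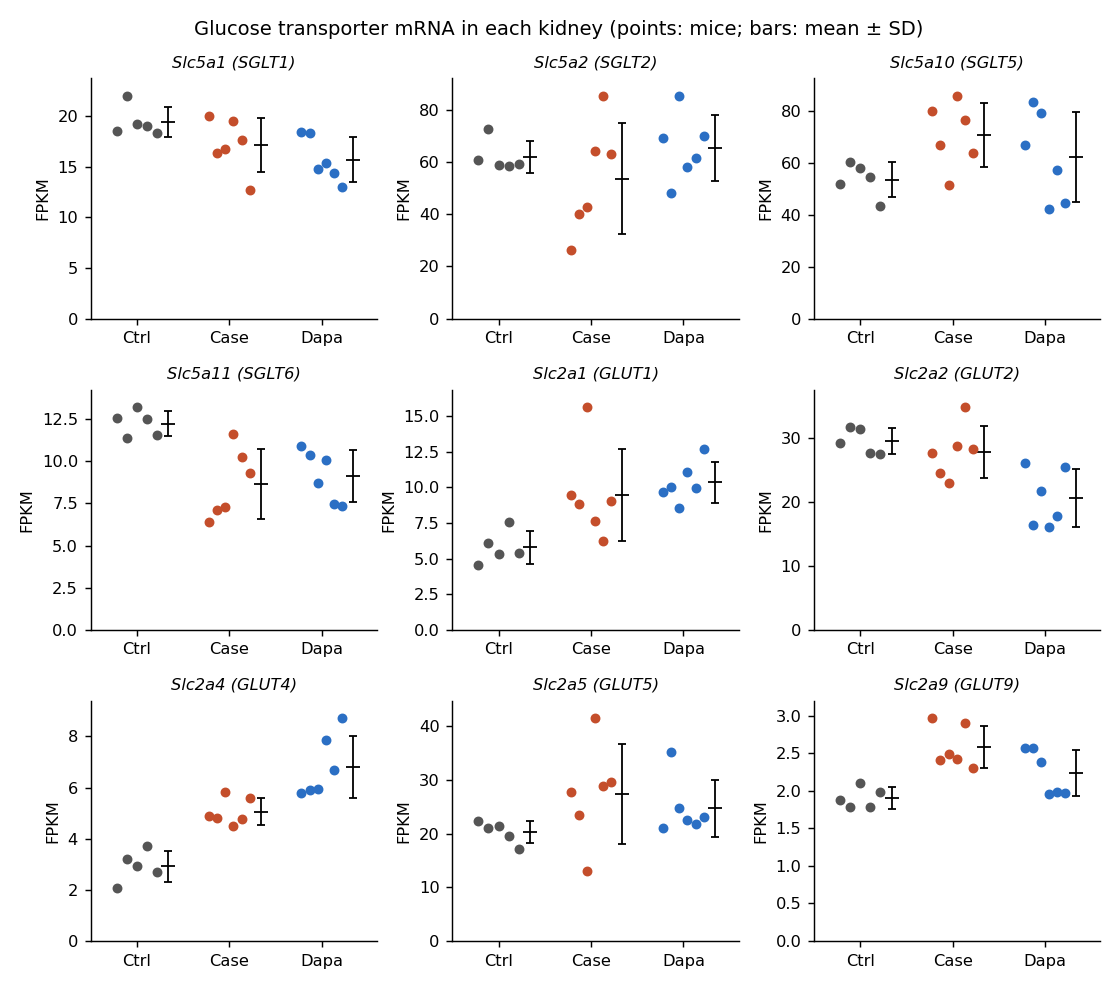
FPKM of each transporter gene (y axis, from 0) in every mouse of the Ctrl, Case and Dapa groups (x axis), with the mean and SD beside the points. Slc5a2 spread from 26.4 to 85.3 in Case, Slc2a4 of every Case and Dapa mouse lay above all Ctrl mice, and Slc2a2 of every Dapa mouse lay below them.

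SGLT1 mRNA was lower in Dapa than in Ctrl mice. Slc5a1 (chromosome 5, 33104219 to 33162870, mm10, plus strand) had 18.5, 21.9, 19.2, 19.0 and 18.4 FPKM in the Ctrl mice. It ran from 12.6 over a median of 17.2 to 19.98 FPKM in Case and from 12.97 over 15.1 to 18.4 in Dapa. Of the 6 Dapa mice, 5 lay below every Ctrl mouse. The log2 fold change in Dapa against Ctrl was -0.41 (standard error 0.10, edgeR q = 0.00947), a fold of 0.751 with a 95% interval from 0.646 to 0.873. In Case against Ctrl it was -0.26 (standard error 0.10, edgeR q = 0.114), which did not pass, and in Dapa against Case -0.14 (standard error 0.12, edgeR q = 0.619). The log2 ratio of mean FPKM of Dapa to Ctrl was -0.41 within the 7 libraries (3 mice against 3) and -0.23 outside them (3 against 2).

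Most listed markers of the late proximal tubule, where SGLT1 is known to lie, were also lower. Of 9 listed markers, 7 were lower in Case and 7 in Dapa than in Ctrl, beside 6.91% and 14.9% of all genes, with median log2 fold changes of -2.20 and -1.996 beside -0.26 and -0.41 for Slc5a1. The 7 called in Case ran from -0.49 for Slc3a1 to -6.32 for Slc22a7. Slc7a12, also listed, went the other way in Case against Ctrl, at 1.27, and did not pass (edgeR q = 0.320). The summed FPKM of the 9 markers was 904 to 1514 in Ctrl, 291 to 553 in Case and 217 to 647 in Dapa, with no overlap between Ctrl and either db/db group. The part of this difference in the level of Slc5a1 was not tested.

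SGLT6 mRNA was lower in both db/db groups. Slc5a11 (chromosome 7, 123214780 to 123273253, mm10, plus strand) encodes a sodium-coupled carrier known chiefly for myo-inositol. Its FPKM was 12.6, 11.4, 13.2, 12.5 and 11.6 in the Ctrl mice, 6.39 to 11.7 with a median of 8.28 in Case, and 7.36 to 10.9 with a median of 9.38 in Dapa. All 6 Dapa mice and 5 of the 6 Case mice lay below every Ctrl mouse. The log2 fold change was -0.57 in Case against Ctrl (standard error 0.15, edgeR q = 0.0288) and -0.53 in Dapa against Ctrl (standard error 0.12, edgeR q = 0.00574), and it was 0.05 in Dapa against Case (standard error 0.16, edgeR q = 0.915). The Case call held in 7 of 11 fits that each left out 1 mouse and was lost with a term for the 7 libraries (edgeR q = 0.0604). Within the 7 libraries the log2 ratio of mean FPKM was -0.998 for Case against Ctrl (1 mouse against 3) and -0.62 for Dapa against Ctrl, and outside them -0.33 (5 against 2) and -0.20 (3 against 2).

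SGLT5 mRNA did not pass the test in any comparison. Slc5a10 (chromosome 11, 61672781 to 61720826, mm10, minus strand) encodes a cotransporter known for mannose and fructose. It had 51.8, 60.5, 58.1, 54.5 and 43.4 FPKM in the Ctrl mice, 51.7 to 85.8 with a median of 71.7 in Case, and 42.2 to 83.4 with a median of 62.0 in Dapa. Of the Case mice, 5 lay above every Ctrl mouse, yet the log2 fold change of 0.32 (standard error 0.14, edgeR q = 0.148) missed the threshold, and it passed in 1 of 11 fits that left out a mouse, the one without Case 3 (0.40, edgeR q = 0.0355). The Dapa mice were split by library: the log2 ratio of mean FPKM of Dapa to Ctrl was -0.19 within the 7 libraries and 0.56 outside them, and the fit over all libraries gave 0.11 (standard error 0.18, edgeR q = 0.678). For Dapa to Case the ratio was -0.74 within them (3 against 1) and 0.15 outside them (3 against 5).

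GLUT1 mRNA was higher in both db/db groups, most clearly in Dapa. Slc2a1 (chromosome 4, 119108711 to 119137983, mm10, plus strand) encodes the transporter that many cells use for basal glucose uptake. Its FPKM was 4.54, 6.12, 5.31, 7.59 and 5.37 in the Ctrl mice, 6.24 to 15.6 with a median of 8.97 in Case, and 8.54 to 12.7 with a median of 10.0 in Dapa. All 6 Dapa mice and 5 of the 6 Case mice lay above every Ctrl mouse.

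Slc2a1 had a log2 fold change in Dapa against Ctrl of 0.74 (standard error 0.12, edgeR q = 0.00132), a fold of 1.67 with a 95% interval from 1.38 to 2.00. In Case against Ctrl it was 0.63 (standard error 0.19, edgeR q = 0.0463), close to the threshold: the call held in 3 of 11 fits that left out a mouse, and without Case 3, the highest mouse, the value was 0.45 and did not pass. It was also lost with a term for the 7 libraries. Dapa against Case gave 0.11 (standard error 0.17, edgeR q = 0.813). Within the 7 libraries and outside them the log2 ratio of mean FPKM was 0.71 and 0.72 in Case against Ctrl, and 0.96 and 0.71 in Dapa against Ctrl.

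Case 3, the mouse with the highest Slc2a1, also had the highest marker sums of several other cell groups among the Case mice. Its sums were 2919 FPKM for the thick ascending limb and distal tubule, 249 for the collecting duct, 436 for erythrocytes, 179 for macrophages and 120 for endothelium. Of all genes, 6.09% were higher in Case and 14.2% in Dapa than in Ctrl. In the same comparisons, 2 of 7 markers of the thick ascending limb and distal tubule were higher in Case and 3 of 7 in Dapa, with sums of 631 to 1716 FPKM in Ctrl, 1160 to 2919 in Case and 1407 to 2187 in Dapa. Of 5 podocyte markers, 2 were higher in each, with sums of 59.0 to 74.5, 63.3 to 102 and 70.6 to 96.8 FPKM. For the collecting duct, 3 of 8 markers were higher in Case and 6 of 8 in Dapa than in Ctrl, and their summed FPKM was 128 to 162 in Ctrl, 162 to 249 in Case and 197 to 378 in Dapa. All 5 erythrocyte markers were higher in both db/db groups, with sums of 18.2 to 69.6 FPKM in Ctrl, 56.7 to 436 in Case and 110 to 358 in Dapa. None of the 7 endothelial markers passed in either comparison by edgeR, and their sums were 55.9 to 101 FPKM in Ctrl, 78.8 to 120 in Case and 74.5 to 143 in Dapa. The part of these cell groups in the difference of Slc2a1 was not tested.

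GLUT2 mRNA was lower in Dapa than in Ctrl mice. Slc2a2 (chromosome 3, 28697903 to 28731359, mm10, plus strand) encodes the low-affinity transporter of the basolateral membrane. It had 29.2, 31.8, 31.4, 27.7 and 27.5 FPKM in the Ctrl mice, 22.9 to 34.8 with a median of 28.0 in Case, and 16.1 to 26.1 with a median of 19.8 in Dapa. Every Dapa mouse lay below every Ctrl mouse, and 4 of the 6 Dapa mice lay below every Case mouse.

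Slc2a2 had a log2 fold change of -0.62 in Dapa against Ctrl (standard error 0.14, edgeR q = 0.00577), a fold of 0.649 with a 95% interval from 0.527 to 0.798. In Case against Ctrl it was -0.16 (standard error 0.12, edgeR q = 0.400). In Dapa against Case it was -0.46 (standard error 0.15, unadjusted p = 0.00916, edgeR q = 0.257), so the difference under the drug did not pass over all genes. The log2 ratio of mean FPKM of Dapa to Ctrl was -0.57 within the 7 libraries and -0.47 outside them, and that of Dapa to Case was -0.48 (3 mice against 1) and -0.38 (3 against 5). Of the 11 early proximal tubule markers, 6 were lower in Dapa and 2 in Case than in Ctrl, beside 14.9% and 6.91% of all genes, and their part in the level of Slc2a2 was not tested.

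GLUT4 mRNA was higher in both db/db groups, and its log2 fold changes against Ctrl were the largest estimates among the 9 genes. Slc2a4 (chromosome 11, 69942539 to 69948188, mm10, minus strand) encodes the insulin-responsive transporter known from muscle and fat. Its FPKM was 2.07, 3.19, 2.92, 3.70 and 2.69 in the Ctrl mice, 4.49 to 5.82 with a median of 4.85 in Case, and 5.77 to 8.70 with a median of 6.30 in Dapa. Every db/db mouse lay above every Ctrl mouse, and 5 of the 6 Dapa mice lay above every Case mouse.

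Slc2a4 had log2 fold changes of 0.72 in Case against Ctrl (standard error 0.13, edgeR q = 0.00430) and 1.12 in Dapa against Ctrl (standard error 0.15, edgeR q = 0.000396). The latter is a fold of 2.17 with a 95% interval from 1.75 to 2.71, and it was the one difference among these genes whose fold between group means of FPKM, 2.34, also passed the study's limit of 2. In Dapa against Case the value was 0.40 (standard error 0.12, unadjusted p = 0.00395, edgeR q = 0.231), which did not pass. Both calls against Ctrl held in all 11 fits that left out a mouse. Within the 7 libraries the log2 ratio of mean FPKM was 1.42 in Dapa against Ctrl and 0.76 in Case against Ctrl, and outside them 0.998 and 0.79. For Dapa against Case it was 0.66 within them (3 mice against 1) and 0.20 outside them (3 against 5). The Dapa mice of the 7 libraries had 6.67 to 8.70 FPKM of Slc2a4 and the other Dapa mice 5.77 to 5.93, without overlap.

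Markers of fat and muscle, tissues known to express Slc2a4, were read beside it. Adipoq, the adiponectin gene, was at 0 in 12 of the 17 mice, and Plin1, which coats lipid droplets, in 11. The summed FPKM of 7 adipocyte markers was 6.20 to 91.4 in Ctrl, 3.22 to 21.6 in Case and 5.26 to 29.7 in Dapa. The 91.4 was Ctrl 3, and the other Ctrl mice reached 12.4 at most. Of the 7 markers only Fabp4 was above 0 in every mouse, at 3.22 to 21.6 FPKM. Ckm, the muscle creatine kinase gene, was at 0 in 15 mice, and the muscle marker sum stayed between 0.107 and 0.981 FPKM. Smooth muscle markers were higher in Dapa than in Ctrl for 2 of 5 genes, beside 14.2% of all genes, with sums of 19.0 to 51.9 FPKM in Ctrl, 26.5 to 47.6 in Case and 30.3 to 99.1 in Dapa. Some markers of the distal tubule and collecting duct, and all 5 of erythrocytes, given with Slc2a1, were higher in the same groups as Slc2a4. The part of any of these cell groups, fat and muscle included, in the level of Slc2a4 was not tested.

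GLUT9 mRNA was higher in Case than in Ctrl mice by a small amount. Slc2a9 (chromosome 5, 38349273 to 38503143, mm10, minus strand) encodes a transporter known for urate. It had 1.88, 1.78, 2.11, 1.78 and 1.99 FPKM in the Ctrl mice, 2.31 to 2.97 with a median of 2.46 in Case, and 1.96 to 2.58 with a median of 2.18 in Dapa. All Case mice lay above all Ctrl mice, and 3 Dapa mice did. The log2 fold change was 0.36 in Case against Ctrl (standard error 0.10, edgeR q = 0.0298), 0.13 in Dapa against Ctrl (standard error 0.11, edgeR q = 0.399) and -0.22 in Dapa against Case (standard error 0.11, edgeR q = 0.395). The Case call held in 5 of 11 fits that left out a mouse. The log2 ratio of mean FPKM of Case to Ctrl was 0.63 within the 7 libraries (1 mouse against 3) and 0.41 outside them (5 against 2), and that of Dapa to Ctrl was 0.04 and 0.42. For Dapa to Case it was -0.59 within them (3 against 1) and 0.0016 outside them (3 against 5).

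GLUT5 mRNA, from the fructose transporter gene Slc2a5 (chromosome 4, 150119283 to 150144169, mm10, plus strand), passed in no comparison. Its FPKM was 22.4, 21.1, 21.4, 19.5 and 17.1 in the Ctrl mice, 13.001 to 41.4 with a median of 28.4 in Case, and 21.0 to 35.2 with a median of 22.8 in Dapa. The log2 fold change was 0.36 in Case against Ctrl (standard error 0.23, edgeR q = 0.322), -0.18 in Dapa against Case (standard error 0.23, edgeR q = 0.764) and 0.18 in Dapa against Ctrl (standard error 0.13, edgeR q = 0.349). Case 3 held the lowest Slc2a5 of all mice, and without it the value in Case against Ctrl was 0.50 (edgeR q = 0.0434).

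The spans of genes on the other strand, introns included, touch exons of Slc5a2 (BC017158), Slc5a10 (Grap and Fam83g), Slc2a1 (Gm12868) and Slc2a2 (1700112D23Rik). Mean FPKM in Ctrl was 2.86 for BC017158 beside 62.1 for Slc5a2. It was 2.30 for Grap and 1.74 for Fam83g beside 53.7 for Slc5a10. Whether reads were counted by strand is not given in the sources used here, so reads of these partners cannot be told apart from those of the transporters. On the sense strand, no stretch of 50 bases in the transcripts of the 9 genes was shared with another gene. That search did not cover the overlaps with genes on the other strand.

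To compare levels between genes, a common length was needed. The length behind the deposited FPKM counted overlapping exons of different transcripts more than once, and for Slc5a2 it was 6000 bases where the longest coding transcript in the GENCODE M21 annotation has 2277. Levels between genes were therefore set on the same scale with the length of the longest coding transcript in place of that length, called the transcript level here. This changes the order of genes but no comparison of a gene between groups.

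On the transcript level scale, Slc5a2 was the most abundant of the 9 genes by group mean: 164 ± 15.9 in Ctrl (SD, n = 5), 141 ± 55.8 in Case and 172 ± 33.4 in Dapa (SD, n = 6 each). Slc5a10 came next with 82.6 ± 10.2, 109 ± 19.1 and 95.8 ± 26.6 in the same order of groups. In Ctrl these 2 did not overlap and Slc5a2 was higher in all 5 mice, but in Case and Dapa their ranges overlapped and Slc5a2 was higher in 5 of 6 mice each. By the deposited FPKM, Slc5a10 (70.8 ± 12.4) stood above Slc5a2 (53.7 ± 21.2) in Case, so their order in Case depends on the length used.

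Below them in Ctrl came Slc2a2 (transcript level 37.8 ± 2.57), Slc2a5 (25.6 ± 2.59), Slc5a11 (20.6 ± 1.27), Slc5a1 (19.4 ± 1.46), Slc2a1 (9.27 ± 1.85), Slc2a4 (7.28 ± 1.51) and Slc2a9 (6.60 ± 0.488), each as mean and SD of 5 mice. Neighbours in this order whose Ctrl ranges overlapped were Slc2a5 and Slc5a11, Slc5a11 and Slc5a1, Slc2a1 and Slc2a4, and Slc2a4 and Slc2a9. The levels of the middle group lay closer in the db/db mice: in Dapa, Slc2a4 (17.02 ± 3.04), Slc2a1 (16.6 ± 2.29), Slc5a1 (15.7 ± 2.21) and Slc5a11 (15.4 ± 2.57) overlapped from neighbour to neighbour. This place of Slc2a4 also depends on the length used, since by deposited FPKM it was 6.80 ± 1.22 in Dapa (SD, n = 6), below Slc2a1 with 10.4 ± 1.43 and Slc5a1 with 15.7 ± 2.21.

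**Figure D3:**
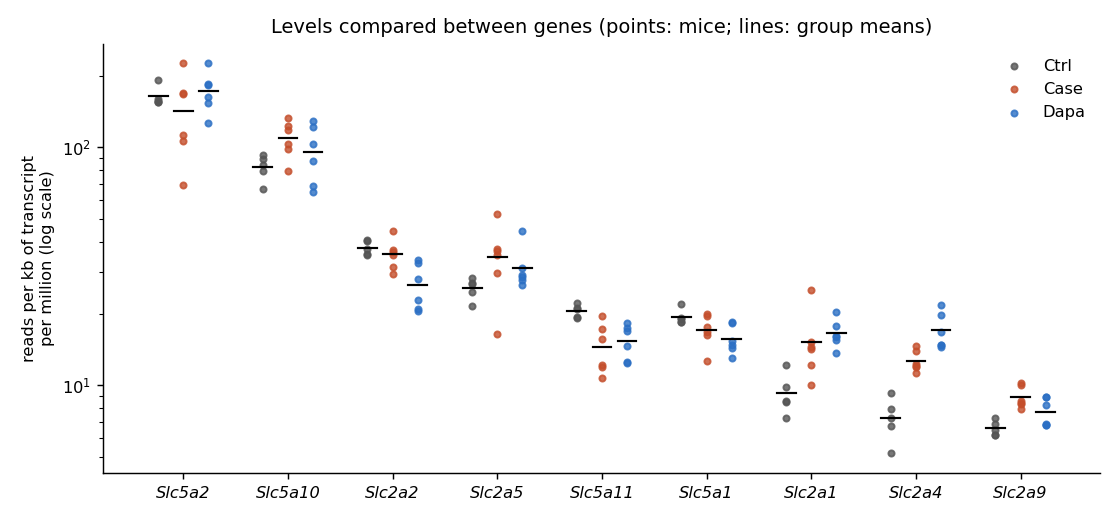
Transcript level (FPKM scaled to the longest coding transcript, log axis) of each gene in every mouse, ordered by the Ctrl mean, with lines at group means. Slc5a2 is highest at 164 in Ctrl and Slc2a9 lowest at 6.60, and Slc2a4 moves from 7.28 in Ctrl to 17.02 in Dapa.

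Ratios of 2 transporters within a library do not depend on the scaling between libraries, and they are given without a test. The ratio of SGLT1 to SGLT2 transcript level was 0.115, 0.114, 0.124, 0.123 and 0.117 in the Ctrl mice. It ran from 0.0759 over a median of 0.132 to 0.287 in Case and from 0.0659 over 0.0942 to 0.145 in Dapa. In these kidneys SGLT1 mRNA was thus the minor species in all 17 mice, at up to 0.287 of SGLT2 in Case 1, where SGLT2 itself was lowest. In deposited FPKM the same ratio reached 0.757 in that mouse, still below 1. The Ctrl ratios lay within the range of both db/db groups.

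The ratio of GLUT1 to GLUT2 transcript level was 0.195, 0.241, 0.211, 0.343 and 0.244 in the Ctrl mice. It ran from 0.224 over a median of 0.415 to 0.854 in Case and from 0.463 over 0.662 to 0.865 in Dapa. Every Dapa mouse lay above the highest Ctrl mouse, while Case overlapped both groups. The mean ratio was 0.247 ± 0.0575 in Ctrl (SD, n = 5), 0.448 ± 0.215 in Case and 0.652 ± 0.157 in Dapa (SD, n = 6 each).

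**Figure D4:**
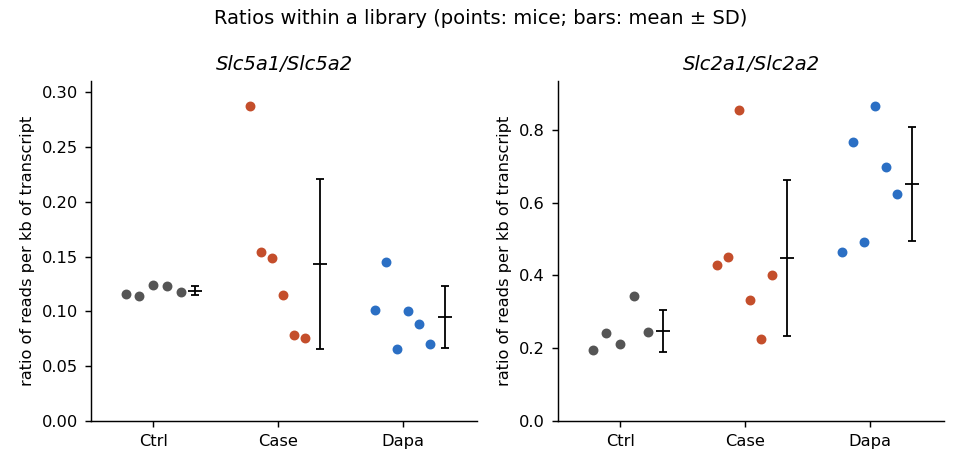
Ratio of transcript levels (y axis, from 0) of Slc5a1 to Slc5a2 (left) and of Slc2a1 to Slc2a2 (right) in every mouse by group, with mean and SD. The 5 Ctrl mice lie between 0.114 and 0.124 on the left, and on the right the Dapa mice lie between 0.463 and 0.865, above all Ctrl mice.

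The sequence at the start of Slc2a1 and upstream of Slc2a2 and Slc5a1 is shown because the first 2 moved in opposite directions between Dapa and Ctrl and the third fell with Slc2a2. The sequences are from RefSeq (GRCm38.p6, plus strand, 5′ to 3′), which held a promoter for 7 of the 9 genes and none for Slc5a2 and Slc2a4. Capitals mark matches to motifs searched on both strands. The HNF4 motif CAAAGTCCA, the E-box CACGTG and the hypoxia response core ACGTG, which also lies inside the E-box, were among those searched. The Slc2a1 stretch is chr4:119108495-119108730, shortened to 236 bases, of which the last 20 lie inside the annotated gene. That of Slc2a2 is chr3:28697653-28697902 and that of Slc5a1 is chr5:33103969-33104218.
Slc2a1: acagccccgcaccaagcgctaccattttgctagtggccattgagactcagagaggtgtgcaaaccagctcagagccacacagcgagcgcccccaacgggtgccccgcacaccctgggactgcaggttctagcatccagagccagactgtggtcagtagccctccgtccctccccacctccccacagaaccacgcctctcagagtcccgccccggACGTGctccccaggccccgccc
Slc2a2: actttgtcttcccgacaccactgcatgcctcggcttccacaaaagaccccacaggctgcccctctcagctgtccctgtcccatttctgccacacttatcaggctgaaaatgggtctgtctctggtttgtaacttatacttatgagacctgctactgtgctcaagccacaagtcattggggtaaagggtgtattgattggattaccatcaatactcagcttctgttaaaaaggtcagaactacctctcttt
Slc5a1: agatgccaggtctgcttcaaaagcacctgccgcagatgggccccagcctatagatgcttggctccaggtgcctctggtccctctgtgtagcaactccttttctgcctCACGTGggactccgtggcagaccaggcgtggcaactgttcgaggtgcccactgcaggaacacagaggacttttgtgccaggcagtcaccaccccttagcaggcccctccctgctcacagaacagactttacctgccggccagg

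The Slc2a1 stretch held 1 match to ACGTG, the Slc5a1 stretch held 1 CACGTG, and the Slc2a2 stretch held no match. Over the 250 bases upstream of 32851 RefSeq promoters, 16.6% held ACGTG, 6.02% CACGTG and 0.384% the HNF4 motif. The GC content of the whole windows of 250 bases, before the Slc2a1 stretch was shortened, was 66.4% for Slc2a1, 60% for Slc5a1 and 47.2% for Slc2a2, beside a median of 52.4% over all promoters. A match describes letters only.

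Other genes of both families were read from a list of 16, of which 10 could be tested. Of these, 2 were called in Case and 4 in Dapa against Ctrl, where 13% and 29.1% of all genes were. In Case against Ctrl, Slc2a10 was higher (log2 fold change 1.09, standard error 0.33, edgeR q = 0.0458), at 3 to 30 counts per mouse, and Slc5a8, a monocarboxylate cotransporter, was lower (-0.81, standard error 0.22, edgeR q = 0.0311). In Dapa against Ctrl, Slc2a8 was higher (0.54, standard error 0.14, edgeR q = 0.0142), and Slc5a8 (-0.80, standard error 0.27, edgeR q = 0.0389), Slc5a12, a lactate cotransporter (-0.39, standard error 0.13, edgeR q = 0.0404), and Slc5a6, a vitamin cotransporter (-0.37, standard error 0.13, edgeR q = 0.0440), were lower. In Case against Ctrl, Slc5a12 stood at -0.03 (standard error 0.17, edgeR q = 0.940). The median over the 10 genes was 0.10 in Case against Ctrl and -0.12 in Dapa against Ctrl.

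Of 12 tested partners of the SGLTs and apical membrane genes, 2 were lower against Ctrl in Case and 4 in Dapa. Of all genes, 6.91% and 14.9% were lower in these comparisons. None of the 12 was higher, and their medians were -0.07 and -0.21. Pdzk1, a scaffold of apical transporters, fell by 0.62 on the log2 scale in Case (standard error 0.17, edgeR q = 0.0282) and by 0.93 in Dapa (standard error 0.15, edgeR q = 0.00107), from 193 FPKM in Ctrl to 132 and 109. Rsc1a1, which encodes a regulator of SGLT1, fell by 0.49 in Case (standard error 0.14, edgeR q = 0.0387) and by 0.52 in Dapa (standard error 0.13, edgeR q = 0.0118). Slc9a3, the apical sodium-hydrogen exchanger NHE3, had -0.51 (edgeR q = 0.00948), and the potassium channel gene Kcnj15 had -0.66 (edgeR q = 0.0281), both in Dapa against Ctrl. Pdzk1ip1, which encodes the SGLT2 partner MAP17, stood at -0.08 in Case and -0.16 in Dapa against Ctrl (edgeR q = 0.679 and 0.244), and at -0.07 in Dapa against Case (edgeR q = 0.820).

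Of 19 tested regulators of transporter genes and transporter traffic, 2 were higher and 1 lower in Case than in Ctrl, and 5 were higher and 3 lower in Dapa. Over all genes tested, 13% and 29.1% were called in these comparisons. The arrestin-like genes Txnip and Arrdc4, whose products are known to hold back GLUT1 at the cell surface, were higher in Case by 0.68 and 0.50 on the log2 scale (edgeR q = 0.0320 and 0.00645) and in Dapa by 0.56 and 0.50 (edgeR q = 0.0392 and 0.00503). In Dapa against Ctrl, Hif1a, the oxygen-sensitive factor, was higher by 0.48 (edgeR q = 0.00562), and Vamp2, known from GLUT4 vesicle traffic, by 0.40 (edgeR q = 0.00476). Cebpa, a transcription factor gene, was lower by log2 fold changes of -0.62 in Case and -1.05 in Dapa (edgeR q = 0.0232 and 0.00505).

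Hnf4a, a transcription factor of the proximal tubule, had a log2 fold change of -0.57 in Dapa against Ctrl (edgeR q = 0.00883) and of -0.38 in Case against Ctrl (edgeR q = 0.0616). The median over the 19 genes was -0.04 in Case against Ctrl and 0.02 in Dapa against Ctrl.

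Of 11 tested genes of the first steps of hexose use and release, 1 was called in Case and 3 in Dapa against Ctrl, shares no larger than the 13% and 29.1% of all genes. Hk1, the hexokinase of most tissues, was higher in Case (log2 fold change 0.95, standard error 0.27, edgeR q = 0.0398) and in Dapa (1.06, standard error 0.27, edgeR q = 0.0110) than in Ctrl. Tkfc and Sord, of fructose and sorbitol use, were lower in Dapa than in Ctrl (-0.37 and -0.47, edgeR q = 0.00579 and 0.0145). The medians over the 11 genes were -0.18 in Case and -0.24 in Dapa. In Dapa against Case, no gene of the 4 lists passed (edgeR).

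To see which genes varied with SGLT2 from mouse to mouse, deviations from the group means of log2(CPM + 1) were correlated over the 17 mice, among 15059 other genes. The 5 genes most like Slc5a2 by Pearson's r were Ces1e (0.91), Miox (0.89), Fbxl21 (0.88), Osbp2 (0.88) and Ethe1 (0.86). Ces1e encodes a carboxylesterase and Miox the enzyme that opens the ring of myo-inositol in the proximal tubule. The 3 most like Slc5a1 were Cyp4f13 (0.84), Vil1 (0.84), which encodes the brush border protein villin, and Ppm1b (0.84), and the 3 most like Slc2a2 were Amz1 (0.87), Gm15318 (0.86) and Gm12678 (0.85). These are the top of a long ranking over libraries that also vary in tissue composition, so they carry no p. Spearman's rho of Slc5a2 was 0.82 with Ces1e and 0.93 with Osbp2, and of the 5 genes only Osbp2 was also among the 5 highest by rho.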

How the data were processed

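One library of oligo(dT)-enriched RNA per mouse was prepared from whole kidney with a stranded kit and sequenced. The authors aligned reads with HISAT2 to mm10 and counted them with StringTie. The deposited counts per gene are raw whole numbers. The deposited FPKM values equal those counts divided by library total and gene length within 0.0266% for genes of 10 or more counts, with no TMM factor. Of 22561 genes, 3 whose entries run over 2 lines were left out.

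Counts were tested with edgeR 4.0.16 (quasi-likelihood F-test, TMM scaling, filterByExpr, R 4.3.3), fitted for each pair of groups over all genes, with Benjamini-Hochberg adjustment. Alternatives were DESeq2 1.42.0, limma 3.58.1 on log2(FPKM + 1) and log2(FPKM + 0.1), other scalings and filters, all 3 groups in one fit, a term for the 7 libraries, a block for the replicate number, and fits without 1 mouse at a time. Between-gene levels had been planned in FPKM, but the longest coding transcript (GENCODE M21) was used for the reason given above. The main edgeR fit of each pair of groups was tested on simulated counts with the same dispersion for all genes, and the alternatives were not. Members and gene lists were chosen with earlier results of these data known. All 9 members were named, and of each related list at most the 4 called genes with the smallest q per comparison, plus Pdzk1ip1, Hnf4a and Slc5a12; a further gene of that rule is not reported here. Promoter sequences are from RefSeq (GRCm38.p6). Totals limit precision through counting error alone, which was 1.28% to 5.75% of a group mean for the members.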

Additional observations from a re-analysis of the deposited data

Results flagged for a closer look

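The 9 genes in 3 groups gave 27 sets of FPKM values, which were screened for a highest or lowest mouse standing apart from its group, and chance gives about 1 such mouse in 20 sets. In 4 sets a mouse stood apart. Ctrl 2 had 21.9 FPKM of Slc5a1, with a gap to its neighbour of 0.759 of the range of the group, and 72.8 FPKM of Slc5a2, with a gap of 0.854. Case 3 had 15.6 FPKM of Slc2a1, with a gap of 0.653, and Dapa 8 had 35.2 FPKM of Slc2a5, with a gap of 0.737. Without Case 3, the log2 fold change of Slc2a1 in Case against Ctrl was 0.45 and did not pass.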

How the results depend on the processing

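In Case against Ctrl, Slc2a4 passed in every fit that left out a mouse and in every other setting but 1. Of the 9 genes, 2 passed with a term for the 7 libraries, 1 with the replicate block and 0 with only the libraries outside the 7, where 2 Ctrl mice remain, and from 1 to 5 passed with a mouse left out (all genes: 1219, 707, 258, and 1002 to 2154). Mice that share a number did not deviate together (correlations -0.083 to -0.034), so the block rests on numbers alone. The 5 calls of Dapa against Ctrl held in each other setting, except that with only the libraries outside the 7 just 1 of the 9 passed, Slc2a4, and 273 of all genes. In Dapa against Case, DESeq2 called 200 of all genes, one fit of all 3 groups 5, and fits without a mouse 0 to 7.

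Some directions turned with the fit. In Dapa against Case with only the libraries outside the 7, log2 fold changes were 0.050 for Slc5a1, 0.14 for Slc5a10 and -0.0067 for Slc2a1, and Slc5a11 ran from -0.015 to 0.15 with a mouse left out. In Dapa against Ctrl, Slc5a2 was 0.017 by upper quartile scaling, 0.057 and 0.058 by limma on log2(FPKM + 1) and log2(FPKM + 0.1), and -0.12 to 0.051 with a mouse left out. By limma on these scales 59.1% and 60.3% of called genes were higher in Case against Ctrl (edgeR 46.9%), and 66.2% and 66.8% in Dapa against Ctrl (edgeR 48.7%). In deposited FPKM the mean ratio of Slc5a1 to Slc5a2 was 0.313 in Ctrl, 0.377 in Case and 0.250 in Dapa, since the lengths differ. By Spearman's rho, 1 of the 5 genes most like Slc5a2 was kept, 0 of the 3 most like Slc5a1 and 2 of the 3 most like Slc2a2. The FPKM values that limma used carry no TMM factor, unlike the edgeR fits. In Case against Ctrl the log2 ratio of mean FPKM was -0.21 for Slc5a2 and 0.80 for Slc2a4, beside edgeR values of -0.28 and 0.72. The cause of the other changes was not tested.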

Other observations

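Deviations from the group means of the transporters were also correlated with each other over the 17 mice, as a description with no p. Slc5a10 and Slc2a5 varied together (Pearson's r 0.69), as did Slc2a1 and Slc2a4 (0.68), Slc5a10 and Slc2a9 (0.65) and Slc5a2 and Slc2a2 (0.61). Slc2a1 and Slc2a5 varied in opposite directions (-0.63). For Slc5a1 and Slc5a2 the value was -0.22. All values come from the same libraries and vary with their tissue composition.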
